A study of Rattus norvegicus with 125 samples.

Results

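Lung taken 24 h after rats breathed phosphine (PH3) was compared with lung taken 24 h after rats breathed air. The arrays were chosen by their titles and number 8 of the 125 in the series, 4 from PH3 rats (labelled 70, 87, 149 and 155) and 4 from Air rats (83, 84, 145 and 151). All probe sets with 1 gene symbol were kept, and 1 probe set per gene gave 13439 genes. All animals were adult male Sprague-Dawley rats, and each array held the lung RNA of 1 rat. The PH3 rats had a single whole-body exposure to phosphine at 387 ppm that lasted 40 min, or 15480 ppm×min, which the labels call low. Lung arrays from 3 h (2 Air and 4 PH3 rats) and 1 week (4 Air and 3 PH3 rats) after exposure entered the same fit and are given where they bear on 24 h. The tissue was ground whole, so the arrays average over all cells of the lung, and fewer cells of a type cannot be told apart from less RNA per cell. The lobe and the hour of day of exposure and of collection are not given in the labels used here.

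Phosphine, used to fumigate stored grain, blocks cytochrome c oxidase, which hands electrons to oxygen at the end of the mitochondrial respiratory chain. Lung cells also carry a circadian clock. In it the activators Bmal1 and Clock switch on genes that hold an E-box in their promoters, among them the repressors Per and Cry, the nuclear receptors Nr1d1 and Nr1d2 (REV-ERB alpha and beta) and the output factors Dbp and Tef. The Per and Cry proteins then block the activators, and the REV-ERBs repress Bmal1 through ROR elements, so that Bmal1 runs opposite to its targets over the day. Glucocorticoids from the adrenal gland also act on this clock, in part through Per1.

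No gene passed the test at 24 h. A gene passed if its limma p-value, adjusted by Benjamini and Hochberg over all 13439 genes, was under 0.05. That held for 0 genes higher in PH3 (0%) and 0 lower (0%), and the smallest adjusted p was 1. Before adjustment, limma gave p under 0.05 for 190 genes (1.41%), 102 higher (0.759%) and 88 lower (0.655%), where 5% of genes would be called if none differed. In 84 genes (0.625%) the lowest PH3 array was above the highest Air array, and in 38 (0.283%) the highest PH3 array was below the lowest Air array. Levels are given as log2 signals. A change is the mean log2 signal in PH3 less that in Air, with the limma fit's standard error (SE) after ±, and its median over all genes was 0.01. None of the changes at 24 h given below is a call, except that Dbp passed when 1 array of another time was left out.

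The arrays were alike over the whole genome. Any 2 of the 8 correlated at 0.953 to 0.993, and between the groups the correlation ran from 0.958 to 0.992. Air rat 84 stood apart, with a median correlation of 0.973 with the others, and the arrays without it correlated at 0.979 to 0.993. The 3′ minus 5′ signal of beta-actin, which grows as RNA breaks down, ran from 2.6 to 3.74 in Air and from 2.26 to 3.59 in PH3, so that the groups overlapped. Without Air rat 84, 223 genes were higher and 86 lower at an unadjusted p under 0.05, and without Air rat 83 the counts were 107 and 207, with 0 passing either time.

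**Figure D1:**
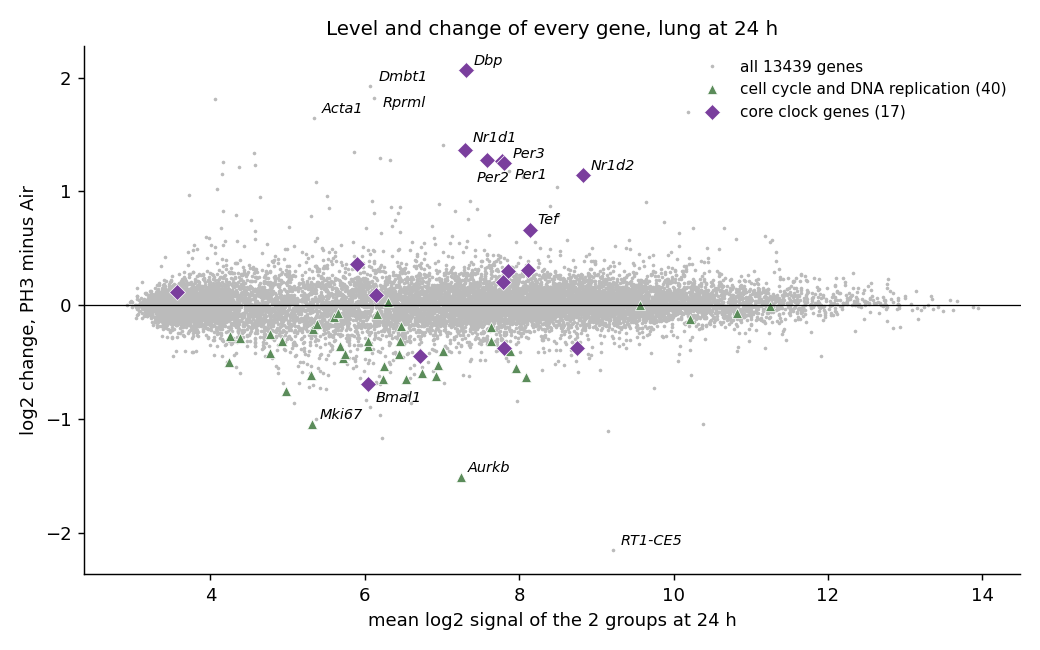
Change of each gene (vertical axis, log2, PH3 minus Air) against its mean log2 signal in the 2 groups at 24 h (horizontal axis), with grey points for all 13439 genes, purple diamonds for 17 core clock genes and green triangles for 40 cell cycle genes. Most genes lie close to 0, Dbp has the largest positive change (2.07), and the cell cycle genes lie mostly below 0.

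Some genes of the core clock had higher signals in PH3, and none passed after adjustment. Of 17 measured, 7 were higher in PH3 at an unadjusted limma p under 0.05 (Dbp, Tef, Nr1d2, Per2, Nr1d1, Per1 and Per3), against 0.759% of all genes. In 6 of these, all but Per1, the PH3 arrays lay above every Air array, against 0.625% of all genes. Bmal1 lay below every Air array, against 0.283% of all genes. The median change of the 17 was 0.31, against 0.01 over all genes. The list was written with earlier results of these data known, and all its members were named after their values were seen.

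Dbp is a PAR bZIP transcription factor and a main output of the clock. Its log2 signal was 6.08, 6.78, 6.28 and 5.96 in Air rats 83, 84, 145 and 151, and 7.61, 8.37, 8.69 and 8.71 in PH3 rats 70, 87, 149 and 155. Every PH3 rat was above every Air rat. The change was 2.07 ± 0.61, a 4.20-fold higher level, with a limma p of 0.0032 before and 1 after adjustment.

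The SE of Dbp depended on 1 array of another time. At 1 week, Air rat 133 had a Dbp signal of 10.07 while the other 3 Air rats had 5.92, 5.79 and 6.55. With that 1 array left out, the change at 24 h was the same 2.07 but its SE was 0.28, and Dbp passed with a limma adjusted p of 0.0068. It was then the only gene to pass at 24 h. Rat 133 was picked out by its level of this same gene, so that pass is no independent evidence. Leaving out any 1 of the other 12 lung arrays at 3 h and 1 week gave no gene at 24 h, and with all 7 arrays at 1 week left out the adjusted p of Dbp was 0.0511. With the 8 arrays at 24 h fitted alone it was 0.233.

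Tef, a related PAR bZIP factor, read 7.77, 8.12, 7.43 and 7.92 in the 4 Air rats, and 8.33, 8.48, 8.70 and 8.37 in the 4 PH3 rats, in the same order of rats. The lowest PH3 value was above the highest Air value. The change was 0.66 ± 0.21. The other 2 probe sets of Tef, both dimmer, were also higher, by 0.53 ± 0.28 and 0.75 ± 0.26. Hlf, the remaining member of this family, overlapped between the groups with a change of 0.31 ± 0.25.

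Nr1d1 and Nr1d2 encode heme-binding nuclear receptors that repress Bmal1. Nr1d1 read 5.76, 7.23, 6.41 and 7.06 in Air, and 7.85, 8.18, 7.65 and 8.25 in PH3. Nr1d2 read 8.59, 7.76, 8.69 and 7.99 in Air, and 9.06, 9.19, 9.78 and 9.55 in PH3. Neither gene overlapped between the groups. The changes were 1.37 ± 0.47 for Nr1d1 and 1.14 ± 0.36 for Nr1d2. Another probe set of Nr1d2 gave 0.95 ± 0.31, and the dimmest, with a mean signal of 3.36 in Air and 3.30 in PH3, gave -0.05 ± 0.09.

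The period genes Per1, Per2 and Per3 encode the repressors of the feedback loop. Per2 read 6.72, 7.59, 6.48 and 7.01 in Air, and 7.86, 7.94, 8.71 and 8.40 in PH3, a change of 1.28 ± 0.42 with no overlap. Per3 read 7.12, 6.89, 7.37 and 7.20 in Air, and 8.05, 8.12, 8.86 and 8.61 in PH3, a change of 1.27 ± 0.51 with no overlap. Per1 read 6.69, 8.34, 6.77 and 6.90 in Air, and 8.98, 7.64, 8.63 and 8.45 in PH3, a change of 1.25 ± 0.48. Per1 overlapped because Air rat 84 was above PH3 rat 87. A dimmer probe set of each gave 0.03 ± 0.15 for Per2 and -0.02 ± 0.09 for Per3.

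The activators were lower or differed little. Bmal1 read 6.63, 6.16, 6.63 and 6.13 in Air, and 5.57, 5.65, 5.65 and 5.93 in PH3. Every PH3 rat was below every Air rat, but the change of -0.69 ± 0.39 had an unadjusted limma p of 0.0895. Npas2, an activator that can stand in for Clock, differed by -0.38 ± 0.31 and overlapped. Clock itself was dim, with means of 3.51 in Air and 3.63 in PH3, and differed by 0.11 ± 0.10.

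The other members overlapped between the groups. The repressor Cry1 differed by -0.38 ± 0.20 and its relative Cry2 by 0.30 ± 0.16, with -0.12 ± 0.11 from a dim probe set of Cry2. Nfil3, a bZIP factor that opposes Dbp at the D-box, differed by -0.45 ± 0.30. Bhlhe40 (0.36 ± 0.28), Bhlhe41 (0.20 ± 0.24) and the Bmal1 activator Rora (0.09 ± 0.48) differed by less than 2 SE.

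**Figure D2:**
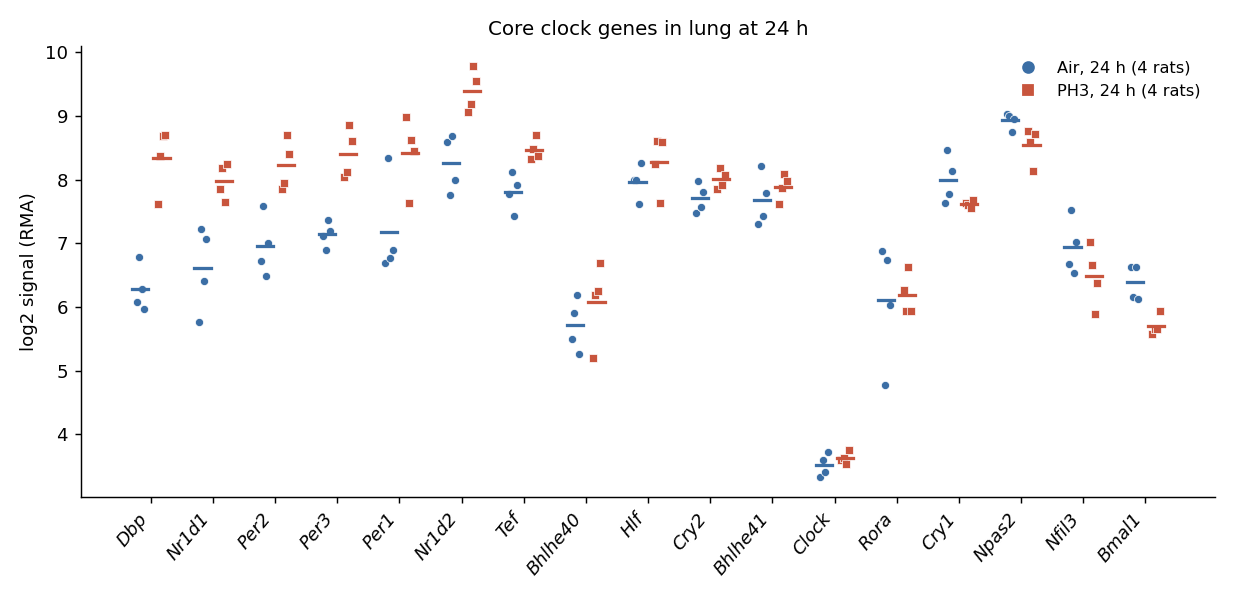
Log2 signal of each of 17 core clock genes (horizontal axis, ordered by change) on each of the 8 lung arrays at 24 h, with blue circles for Air, red squares for PH3 and a bar at each group's mean. The 6 genes Dbp, Nr1d1, Per2, Per3, Nr1d2 and Tef show all 4 PH3 points above all 4 Air points, and Bmal1 shows the reverse.

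The rats carry label numbers that fall in a low set (under 100) and a high set (over 140), each with 2 Air and 2 PH3 rats at 24 h, and the labels do not say what the numbers mean. Dbp was higher in PH3 by 1.56 within the low set and by 2.58 within the high set. The change of Per2 was 0.74 and 1.81, that of Nr1d1 1.52 and 1.22, and that of Bmal1 -0.79 and -0.59. Since the groups of these 4 genes do not overlap, the sign within each set was fixed by that, and the values show the size alone. The arrays of PH3 rats 70 and 155 held the most signal of fat and skeletal muscle genes. Without them 5 clock genes were higher at an unadjusted limma p under 0.05, against 93 of all genes. The median change of the 17 was then 0.35.

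Promoter sequences of these genes are shown because E-boxes, D-boxes and ROR elements are the sites through which the clock factors act on each other. Of the 17 genes, 15 matched the RefSeq promoter table of GRCr8, which gives 250 bases before and 50 after each start, in 17 entries. An E-box was searched as CACGTG, a D-box as TTATGNAA and a ROR element as AANTN followed directly by GGTCA, on both strands and with no overlap between kinds in the sequences shown. Matches are in capitals below, and each sequence runs 5′ to 3′ in the direction of its gene. Dbp, the gene with the largest change, is at chr1:105312006-105312305 on the plus strand and held none of the 3 in this window.
Dbp: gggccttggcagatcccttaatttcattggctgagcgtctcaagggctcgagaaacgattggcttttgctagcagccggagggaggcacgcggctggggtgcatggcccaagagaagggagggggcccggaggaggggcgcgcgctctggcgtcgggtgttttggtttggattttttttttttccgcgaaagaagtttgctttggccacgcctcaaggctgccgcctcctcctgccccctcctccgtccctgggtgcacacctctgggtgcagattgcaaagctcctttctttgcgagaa
Tef is at chr7:115206577-115206876 on the plus strand, with an E-box 198 bases before the start.
Tef: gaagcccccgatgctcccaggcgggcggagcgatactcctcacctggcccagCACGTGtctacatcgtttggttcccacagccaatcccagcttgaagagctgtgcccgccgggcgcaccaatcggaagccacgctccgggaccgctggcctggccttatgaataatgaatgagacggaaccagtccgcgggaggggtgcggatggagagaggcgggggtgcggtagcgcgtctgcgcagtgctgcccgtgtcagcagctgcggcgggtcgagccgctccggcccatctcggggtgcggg
Nr1d1 is at chr10:84229405-84229704 on the minus strand, with an E-box 191 bases before the start of this entry.
Nr1d1: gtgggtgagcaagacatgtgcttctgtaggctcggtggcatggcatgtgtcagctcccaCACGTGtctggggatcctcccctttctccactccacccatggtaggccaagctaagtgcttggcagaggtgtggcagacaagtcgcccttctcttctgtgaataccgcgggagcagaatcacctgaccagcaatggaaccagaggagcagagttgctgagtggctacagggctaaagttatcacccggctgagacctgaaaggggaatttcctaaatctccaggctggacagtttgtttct
Per2 is at chr9:99496944-99497243 on the minus strand, with a D-box 192 bases before the start.
Per2: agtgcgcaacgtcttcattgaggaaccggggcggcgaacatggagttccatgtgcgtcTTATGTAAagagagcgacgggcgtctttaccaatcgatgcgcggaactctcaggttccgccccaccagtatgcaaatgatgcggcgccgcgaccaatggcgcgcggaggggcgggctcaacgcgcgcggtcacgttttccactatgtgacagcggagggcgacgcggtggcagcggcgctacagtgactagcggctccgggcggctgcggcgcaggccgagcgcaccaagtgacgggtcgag
Bmal1 is at chr1:176766078-176766377 on the plus strand, with a ROR element 19 bases before the start.
Bmal1: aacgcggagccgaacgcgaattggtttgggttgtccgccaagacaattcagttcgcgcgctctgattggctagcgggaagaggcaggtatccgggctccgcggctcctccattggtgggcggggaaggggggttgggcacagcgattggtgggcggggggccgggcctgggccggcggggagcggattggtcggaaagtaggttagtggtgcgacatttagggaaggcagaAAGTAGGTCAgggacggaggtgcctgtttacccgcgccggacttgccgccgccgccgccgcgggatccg
Among all 33469 promoters in the table, 6.42% held the E-box, 3.66% the D-box and 0.852% the ROR element. Of the 17 clock entries, 4 held the E-box (Tef, Nr1d1, Bhlhe40 and Bhlhe41), 1 the D-box and 1 the ROR element. The other Nr1d1 entry and the entries of Per1, Per3 and Nr1d2 held none in these windows. A match is a run of letters and does not show that a factor was bound.

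Levels at the other times place the 24 h values. Dbp read 7.61 and 8.18 in the 2 Air rats at 3 h, and 7.59, 8.51, 7.39 and 7.88 in the 4 PH3 rats. At 24 h the Air rats were all below these values and the PH3 rats were within or just above them. At 1 week the 3 PH3 rats read 9.88, 9.54 and 9.83, near Air rat 133 and above the other 3 Air rats. Bmal1 read 5.52 and 5.5 in Air and 5.30 to 6.23 in PH3 at 3 h. At 1 week it read 4.31, 4.31 and 4.55 in PH3, 4.20 in Air rat 133, and 6.57, 6.83 and 6.52 in the other Air rats.

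**Figure D3:**
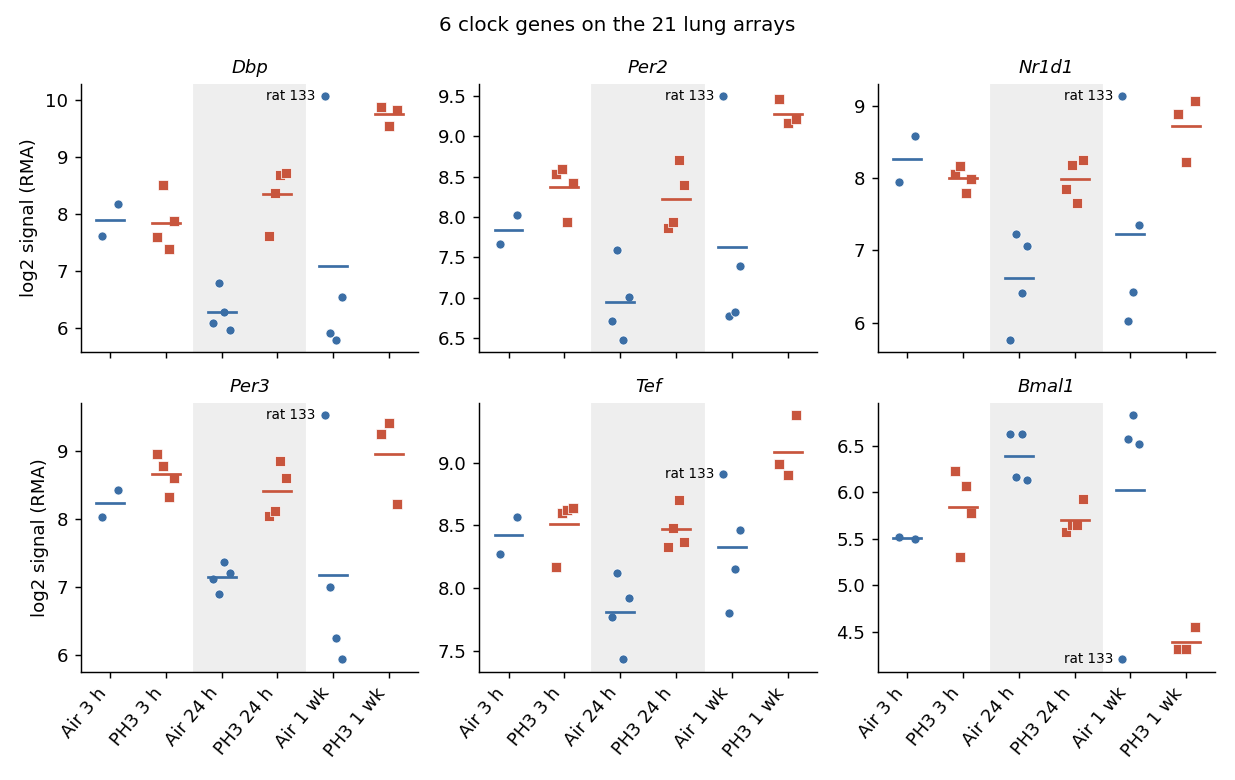
Log2 signal of Dbp, Per2, Nr1d1, Per3, Tef and Bmal1 (vertical axes) on all 21 lung arrays, by exposure and time (horizontal axis), with blue circles for Air, red squares for PH3, a bar at each mean and the 24 h groups shaded. Air rat 133 lies among or close to the PH3 rats at 1 week in all 6 panels, for example at 10.07 for Dbp.

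At 3 h the change of Dbp was -0.05 ± 0.75 and that of Nr1d1 -0.26, while Per1 was higher by 1.78. The change of Dbp at 24 h exceeded that at 3 h by 2.12 ± 0.97, with a limma p of 0.0414 before and 0.893 after adjustment. The difference therefore did not pass. At 1 week the changes were 2.67 ± 0.66 for Dbp, 1.66 for Per2 and -1.64 ± 0.42 for Bmal1, and none passed. Without Air rat 133, 7 of the 9 clock genes followed at 1 week passed, and Per1 and Tef did not. The changes were then 3.66 ± 0.32 for Dbp, -2.25 ± 0.22 for Bmal1 and -1.81 for Npas2. Rat 133 was picked out by its levels of these same genes, and the 9 were chosen after their values were seen. These passes are therefore no independent evidence, and the share of all genes passing in that fit was not counted.

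Other organs of rats killed at 24 h were measured too, and some came from the animals whose lungs were used. These were 2 of 4 PH3 and 2 of 4 Air rats in kidney. In heart they were 1 of 3 PH3 and both Air rats (2 of 2), and in brain 2 of 4 PH3 and 3 of 4 Air rats. The organs are therefore not independent sets of animals. In kidney, Dbp was 8.02 ± 0.23 in Air and 9.21 ± 0.42 in PH3 (SD, n = 4 each), and Bmal1 was 6.55 ± 0.32 and 5.42 ± 0.31. The PH3 and Air rats did not overlap for either gene. Per1, Per3 and Npas2 did not overlap in kidney either, while Per2, Nr1d1, Nr1d2 and Tef did. The share of all genes without overlap was not counted in kidney or heart. In heart, with 2 Air and 3 PH3 rats, Dbp ranged from 8.15 to 8.82 in Air and from 9.0 to 9.33 in PH3, and Bmal1 from 6.67 to 7.06 and from 6.00 to 6.04. In brain the ranges overlapped, at 9.09 to 9.48 and 9.32 to 9.54 for Dbp, and at 6.07 to 6.55 and 6.04 to 6.39 for Bmal1. Other clock genes were mixed in brain. Npas2 (-0.75), Nr1d2 (0.47) and Per3 (0.375) changed with the same sign as in lung. Nr1d1 (-0.23), Tef (-0.20), Per2 (-0.07) and Per1 (-0.05) had the opposite sign. None of these passed over all genes of its organ.

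**Figure D4:**
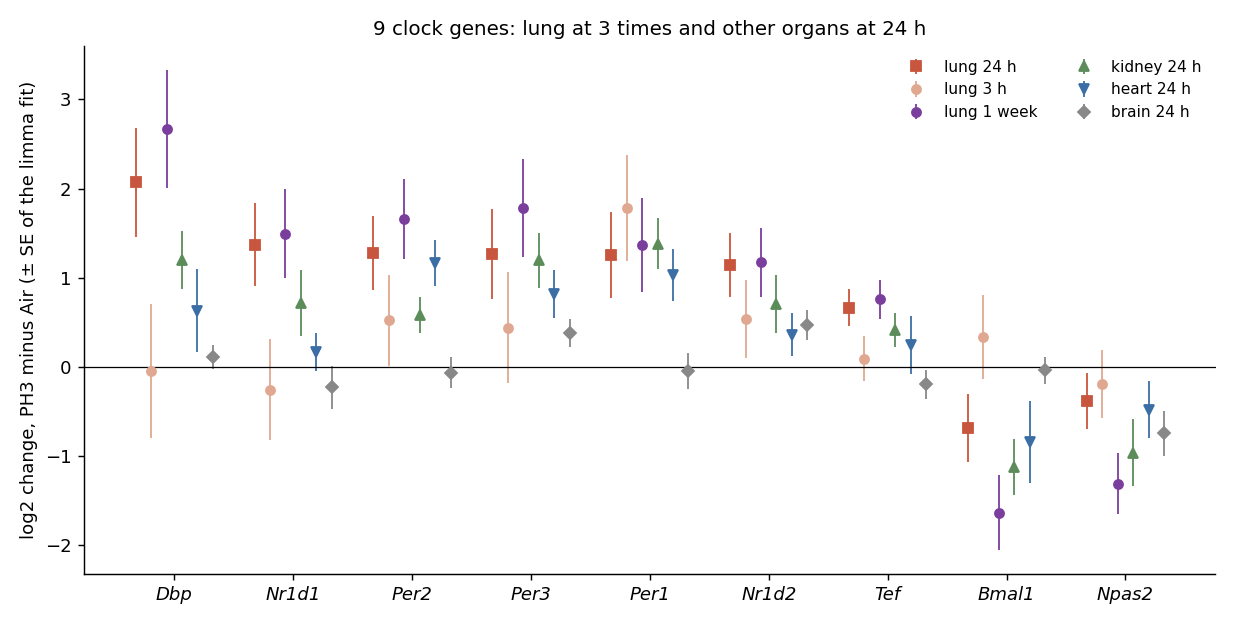
Change of 9 clock genes (log2, PH3 minus Air, with the SE of the limma fit) in lung at 24 h, 3 h and 1 week and in kidney, heart and brain at 24 h. At 24 h lung, kidney and heart lie on the same side of 0 for each of the 9 genes, and Dbp in brain is at 0.11. Some rats gave more than 1 of these organs.

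Glucocorticoid targets were the next group. Of 27 measured, 6 were higher at an unadjusted limma p under 0.05 (Nfkbia, Ddit4, Klf9, Tsc22d3, Per1 and Errfi1), against 0.759% of all genes, and 0 were lower, against 0.655%. Their median change was 0.39 at 24 h, 1.06 at 3 h and 0.51 at 1 week, where the medians over all genes were 0.01, -0.07 and -0.02. The mean signal of the list was 7.83, 8.43, 7.82 and 8.11 in Air and 8.94, 8.14, 8.29 and 8.17 in PH3, so that the groups overlapped and PH3 rat 70 was highest. Rat 70 carried much of the difference: without it the median was 0.11 and 4 members were higher at such a p, against 110 of all genes. Without rats 70 and 155 the median was 0.03 with 2 members, against 93 of all genes. Rat 70 was also the array with the most signal of fat cell markers, and the part of these in the glucocorticoid list was not tested.

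Klf9, a zinc finger factor induced by glucocorticoids, was the 1 member whose groups did not overlap. Of all genes, 0.625% lay above every Air array and 0.283% below. It read 10.85, 11.15, 10.96 and 10.95 in Air, and 11.96, 11.20, 11.52 and 11.45 in PH3. The change was 0.56 ± 0.18 at 24 h, with 0.12 ± 0.14 from a dim probe set, and at 3 h Klf9 had risen by 1.08 (limma adjusted p 0.0433). Nfkbia, the inhibitor of NF-kB, read 10.60, 11.17, 10.80 and 10.94 in Air, and 11.72, 11.15, 11.89 and 11.19 in PH3. It overlapped because Air rat 84 was above PH3 rat 87, and the change was 0.61 ± 0.19. Ddit4, which restrains mTOR, read 7.05, 7.28, 7.44 and 7.34 in Air, and 9.23, 8.57, 8.71 and 7.31 in PH3. In 3 PH3 rats it was far above Air, and rat 155 was within the Air range. The change was 1.18 ± 0.38.

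Fkbp5, a chaperone of the glucocorticoid receptor, had risen by 2.65 at 3 h (limma adjusted p 0.0022). At 24 h it read 6.73, 7.32, 6.36 and 6.69 in Air, and 7.55, 7.26, 7.0 and 7.17 in PH3, a change of 0.47 ± 0.29 with overlap. The change at 24 h was smaller than at 3 h by 2.18 ± 0.46 (limma p 0.000129, adjusted 0.272). Tsc22d3, the leucine zipper GILZ, was higher by 0.57 ± 0.21 and Errfi1 by 0.44 ± 0.17, both with overlap. Pdk4, which turns off pyruvate dehydrogenase, read 6.37, 6.86, 6.44 and 7.36 in Air, and 9.73, 6.07, 7.46 and 7.07 in PH3, so that its change of 0.83 ± 0.56 rested on rat 70.

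Genes of the cell cycle and DNA replication had mostly lower signals in PH3. Of 40 measured, 8 were lower at an unadjusted limma p under 0.05, against 0.655% of all genes, and 0 were higher, against 0.759%. The change was above 0 in 1 of the 40, against 7090 of all 13439 genes. The median of the 40 was -0.36, against -0.05 at 3 h and 0.12 at 1 week. None of the 40 was without overlap, against 0.625% of all genes above and 0.283% below every Air array. The number lower at such a p ran from 3 to 15 with 1 array at 24 h left out. It was 15 without Air rat 83 or PH3 rat 87, where 207 and 132 of all genes were lower, against 88 with all arrays. It was 11 without Air rat 84 (86 of all genes), 5 without PH3 rat 155 (83) and 4 without Air rat 145 (121). It was 3 without Air rat 151 (84), PH3 rat 70 (82) or PH3 rat 149 (86). Without PH3 rats 70 and 155 it was 2 (73 of all genes), with a median of -0.18. The mean signal of the list was 6.42, 6.54, 7.06 and 6.86 in Air, and 6.22, 6.58, 6.28 and 6.22 in PH3. PH3 rat 87 was above Air rats 83 and 84, and the other 3 PH3 rats were below all Air rats.

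Aurkb, a kinase of mitosis, read 8.49, 7.82, 8.55 and 7.16 in Air, and 5.74, 5.89, 6.02 and 8.30 in PH3. PH3 rat 155 lay among the Air rats and the other 3 lay far below. The change was -1.52 ± 0.50. Mki67, the proliferation marker Ki-67, read 6.38, 4.99, 6.57 and 5.43 in Air, and 4.81, 4.90, 5.32 and 4.14 in PH3, a change of -1.05 ± 0.42 with overlap. At 3 h and 1 week Mki67 was higher in PH3, by 1.02 and 1.00, and the change at 24 h was below that at 3 h by 2.07 ± 0.67 (limma p 0.0056, adjusted 0.817). Uhrf1, which copies DNA methylation at replication forks, was 4.41, 6.08, 5.52 and 5.43 in Air, and 4.84, 4.88, 4.32 and 4.38 in PH3. Air rat 83 was within the PH3 range, and the change was -0.76 ± 0.24.

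Among the 30 genes with the smallest p-values, 15 in each direction, several lie outside these lists. Rprml, a relative of the cell cycle inhibitor reprimo, read 4.25, 5.86, 4.64 and 6.09 in Air, and 7.04, 6.92, 7.76 and 6.39 in PH3. All PH3 rats were above all Air rats, by 1.82 ± 0.49. Dmbt1, a secreted scavenger protein of mucosal surfaces, read 4.94, 4.95, 5.04 and 5.48 in Air, and 8.0, 5.92, 7.23 and 6.97 in PH3, again without overlap (1.93 ± 0.62). Alas1 makes the first step of heme synthesis, and heme is the ligand of the REV-ERB receptors and the cofactor of cytochromes. It read 9.42, 9.72, 9.37 and 9.56 in Air, and 10.39, 9.98, 10.30 and 10.33 in PH3. The groups did not overlap and the change was 0.73 ± 0.19, with an unadjusted limma p of 0.0013.

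Bcl2l14, a member of the BCL2 family, had the smallest p of all genes, 0.000986 by limma before adjustment. It read 5.75, 5.78, 6.22 and 6.29 in Air, and 6.79, 6.78, 6.96 and 6.51 in PH3, a change of 0.75 ± 0.19 with no overlap. A dimmer probe set of Bcl2l14 gave 0.50 ± 0.18 with overlap. Gadd45b, a stress-induced regulator of growth, was higher by 0.64 ± 0.20 with overlap. Atp1b1, the beta subunit of the sodium pump that drives fluid out of alveoli, read 10.51, 9.95, 9.97 and 10.24 in Air, and 10.57, 10.52, 10.54 and 10.59 in PH3. The lowest PH3 value exceeded the highest Air value by a narrow margin, and the change was 0.38 ± 0.12. Another probe set of Atp1b1 gave 0.37 ± 0.14 with overlap. At 3 h Atp1b1 had risen by 1.41 (limma adjusted p 0.000131), and its change at 24 h was smaller by 1.03 ± 0.19 (limma p 3.39e-05, adjusted 0.272).

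The 15 genes lower in PH3 were mostly dim. Of them, 10 had a mean signal under 5, against 28.5% of all genes. The change was less than 0.5 in 9 of the 15, and in 13255 of all 13439 genes. Among the brighter, Mmp14, a membrane-bound collagenase, read 9.87, 10.49, 9.88 and 10.23 in Air, and 9.78, 9.41, 8.49 and 9.88 in PH3. PH3 rat 149 was lowest, and rat 155 overlapped with Air (-0.73 ± 0.23). A dimmer probe set of Mmp14 gave 0.01 ± 0.28. Lrat, which stores vitamin A as esters, differed by -1.17 ± 0.41 with overlap. Cenpk, a protein of the kinetochore, read 5.37, 5.39, 5.84 and 5.73 in Air, and 4.91, 5.26, 5.08 and 4.71 in PH3, without overlap (-0.59 ± 0.19). Among the dim genes were Ugt2b1, Cck, Acr, Cd80 and Agtr1b, with changes from -0.28 for Acr to -0.20 for Agtr1b.

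Of 24 genes of vascular growth and tone, 2 lay below every Air array, against 0.283% of all genes, and 0 lay above. Aplnr, the receptor of the vasodilator apelin, read 9.21, 9.36, 9.17 and 9.58 in Air, and 8.84, 8.93, 8.48 and 8.78 in PH3, a change of -0.57 ± 0.21. Adm, which encodes the vasodilator adrenomedullin and is induced by hypoxia, read 6.74, 7.23, 6.98 and 6.90 in Air, and 6.30, 6.20, 5.87 and 6.30 in PH3. The change of Adm was -0.79 ± 0.41. Apln, the ligand of Aplnr, differed by -0.37 ± 0.23 and Nos3 by 1.09 ± 0.54, both with overlap. A dim probe set of Aplnr gave -0.15 ± 0.16, and the median change of the 24 genes was -0.01.

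The subunits of cytochrome c oxidase, the target of phosphine, were examined next. Among 14 measured, 0 had an unadjusted limma p under 0.05, where 1.41% of all genes did, so that with 14 genes the count says little. Their median change was 0.06. Cox4i1 differed by 0.14 ± 0.15, Cox7a1 by 0.33 ± 0.25 and the hypoxia-linked Cox4i2 by -0.20 ± 0.28. Of 14 assembly factors 1 reached that p, Cox11, lower by 0.30 at a signal near 4, against 0.655% of all genes. Its other probe sets gave -0.08 ± 0.12 and 0.10 ± 0.08. The 22 hypoxia and HIF targets had a median change of 0.02, and Vegfa differed by -0.07 ± 0.09. Within that list 1 gene, Adm, lay below every Air array, against 0.283% of all genes. Pfkfb3, a dim glycolytic regulator, was the 1 gene above every Air array, against 0.625% of all genes. Its change was 0.22 ± 0.16, though its other probe set gave -0.05 ± 0.09.

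The stress and inflammation genes named here overlapped between the groups. The 18 NRF2 targets had a median change of 0.04, with Nqo1 at 0.14 ± 0.13 and Hmox1 at -0.13 ± 0.18. Gdf15 differed by -0.23 ± 0.24 and the p53 target Cdkn1a by -0.07 ± 0.34. Ccl2, which draws monocytes, read 6.49, 7.02, 6.58 and 6.20 in Air, and 5.64, 6.19, 4.86 and 6.35 in PH3. Its change of -0.81 ± 0.34 had an unadjusted limma p of 0.0284, and PH3 rat 155 was above Air rat 151. Il6 (-0.06 ± 0.10) and Il1b (0.08 ± 0.28) differed by less than 1 SE. The metallothioneins Mt2A (0.15 ± 0.50) and Mt1 (-0.11 ± 0.23) and the protease inhibitor Timp1 (-0.12 ± 0.18) also did.

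Markers of alveolar cells had similar levels on all arrays. The mean signal of 14 type 2 cell markers, the cells that make surfactant, lay between 11.03 and 11.21 on the 8 arrays. That of 10 type 1 cell markers, the flat cells of gas exchange, lay between 10.96 and 11.11. The surfactant gene Sftpc differed by -0.01 ± 0.06 at a signal near 13.9, Sftpa1 by 0.06 ± 0.14, the type 1 marker Ager by 0.03 ± 0.07 and the club cell secretoglobin Scgb1a1 by -0.05 ± 0.06. The 10 neutrophil markers overlapped, at 6.19 to 7.31 in Air and 6.45 to 7.61 in PH3. The 12 smooth muscle and pericyte markers had a median change of 0.30. The change was above 0 in 10 of them, against 7090 of all 13439 genes. Of the 12, Tagln (0.32 ± 0.13) and Actg2 (0.57 ± 0.26) were higher at an unadjusted limma p under 0.05, against 0.759% of all genes, both with overlap.

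Markers of tissues next to the lung differed between single rats. The mean of 10 fat cell markers was 8.97 in PH3 rat 70 and 5.70 to 5.81 in the other PH3 rats, against 6.15 to 7.69 in Air. Ucp1, the uncoupling protein of brown fat, was 11.39 in rat 70 and 9.90 in Air rat 151, and 3.51 to 3.79 in the other PH3 rats. The mean of 6 skeletal muscle markers was 7.78 in PH3 rat 155 and 4.57 to 5.24 on the other 7 arrays. The mean of 11 heart muscle markers was 7.58 in rat 70 and 7.54 in rat 155, against 6.25 to 7.09 on the other 6 arrays. The part of these cells in the levels of Pdk4 in rat 70, or of any other gene, was not tested.

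**Figure D5:**
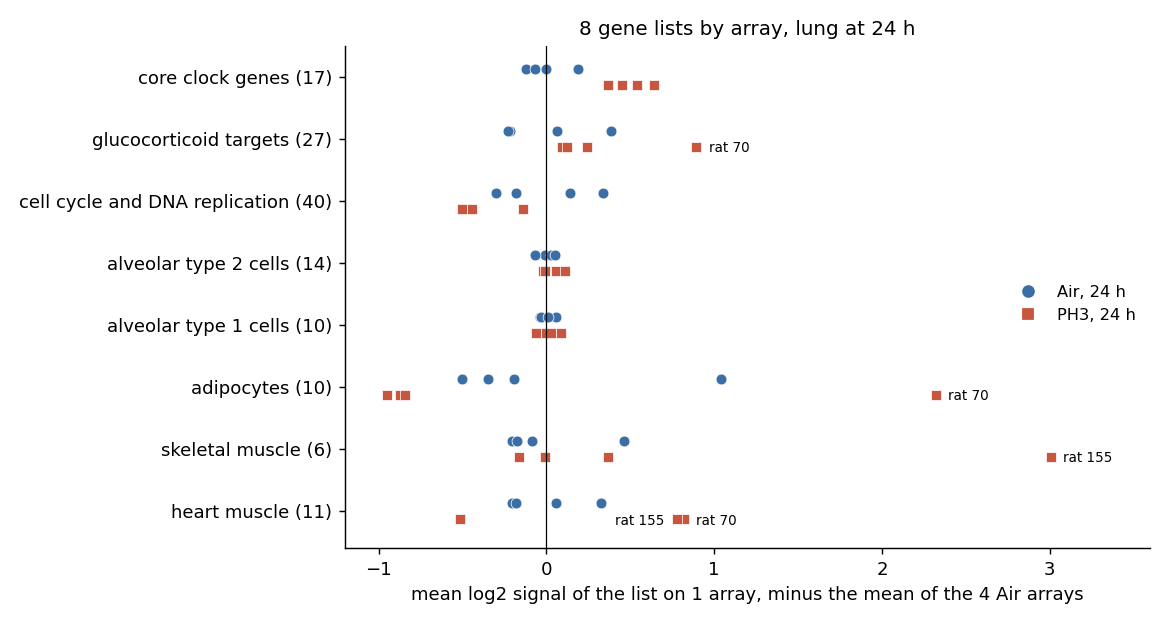
Mean log2 signal of 8 gene lists on each of the 8 arrays at 24 h, as the difference from the mean of the 4 Air arrays (horizontal axis), with blue circles for Air, red squares for PH3 and the number of genes in brackets. The PH3 and Air arrays separate for the clock list, overlap for the other lists, and PH3 rats 70 and 155 lie far out for fat and skeletal muscle markers.

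Some of the largest changes came with 1 array that stood apart from its group. Of 32 genes with a change over 1, 25 were higher and 7 lower in PH3. Among the 32, 8 did not overlap, against 122 of all 13439 genes, and a large change itself favours no overlap. Clock genes were 6 of the 32, against 17 of all 13439, on a list written with earlier results known. In 13 of the 32, 1 array lay apart from the rest of its group by Dixon's test at the 95% level. A gene counted if this held in Air or in PH3, and the share of all genes was not counted. For Per1 (Air rat 84) and Aurkb (PH3 rat 155) the array apart made the change smaller. Acta1, the actin of skeletal muscle, had a change of 1.65 ± 1.18 and read 10.47 in PH3 rat 155 against 4.09 to 5.39 elsewhere. RT1-CE5, a class I histocompatibility gene, had the lowest change of all genes (-2.16 ± 1.27) and read 3.29 in PH3 rat 155 against 9.06 to 10.84 elsewhere. RT1-Ba, a class II gene, had no overlap (1.70 ± 0.71) but read 5.73 in Air rat 145 and 10.23 to 11.22 elsewhere. Its 3 other probe sets gave changes from -1.98 to -0.59, so that the direction of RT1-Ba is uncertain. Why the probe sets differ was not tested.

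Set against the other times as a whole, lung at 24 h had fewer genes past the test than at 3 h. At 3 h, 21 genes had risen (0.156%) and 19 had fallen (0.141%), and limma gave an unadjusted p under 0.05 for 1587 genes (11.8%). At 1 week 0 genes passed (0%) and 285 had such a p (2.12%). The test of the difference found 0 genes (0%) whose change at 24 h differed from that at 3 h, with 723 at an unadjusted limma p under 0.05 (5.38%). It found 0 genes (0%) that differed from 1 week, with 166 at such a p (1.24%).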

How the data were processed

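Expression was measured on Affymetrix rat arrays, labelled by a 3′ method from total RNA of frozen, powdered tissue. The authors deposited log2 signals of 31139 probe sets on 125 arrays, made per the submitters' processing notes with RMA in Affymetrix Expression Console, Partek being named too. The log2 scale was taken from RMA and the range of the values. Whether all organs were normalised together is not given in the sources used here.

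The platform annotation gave 1 gene symbol to 19069 probe sets, several to 572 and none to 11498. For each gene the probe set brightest on average over the 21 lung arrays was used, which left 13439 genes. limma 3.58.1 in R 4.3.3 fitted 1 coefficient for each of the 6 lung groups, with eBayes and a trend in the mean. The Benjamini-Hochberg adjustment was used, with 0.05 as the threshold. The other 11979 probe sets, less controls, were fitted on their own, and 0 passed at 24 h (limma, 266 at an unadjusted p under 0.05). Precision is limited by the 4 arrays in each group. The labels number each rat, and nothing else says how rats were handled.

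The members, the 64 gene lists and the panel were chosen with earlier results of these data known. The genes named are the 15 with the smallest p in each direction, the 3 of each described list with the smallest p, a panel of stress and lung genes, and genes named after their values were seen (all clock genes, Acta1, RT1-CE5, Ucp1, Fabp4 and others in the lists). Lists are given by counts and medians, with no test of a list. The alternatives comprised the 8 arrays alone, array weights, no trend, a filter on dim genes, other rules for probe sets, other scaling, the rat number and leaving out arrays. Those chosen after seeing the data left out PH3 rats 70 and 155, the arrays at 1 week, or each lung array at 3 h and 1 week, or fitted the rat number over all lung arrays. The fit was tested on simulated data. The R package data.table was at version 1.17.8, and Python 3.11.15 with matplotlib 3.10.9 made the figures.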

Additional observations from a re-analysis of the deposited data

Results flagged for a closer look

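In 178 groups of 4 arrays (83 genes and 6 lists, Air and PH3), 11 held an array whose gap to the next exceeded Dixon's 95% critical share of the group's range (6.18%). Chance gives about 1 in 20 for groups chosen without regard to their values. Some of these genes were named after their values were seen, and some are also in the lists. The share is therefore no test against chance. PH3 rat 70 gave the value that stood apart for Mt2A (7.85), Ucp1 (11.39), Fabp4 (11.46) and the mean of the fat cell markers (8.97). PH3 rat 155 did so for Aurkb (8.30, against 6.02 for the next) and the mean of the skeletal muscle markers (7.78), and PH3 rat 87 for the mean of the cell cycle genes (6.58). In Air, rat 84 stood apart for Per1 (8.34) and Gstp1 (11.79), rat 83 for Il1b (9.05) and rat 145 for RT1-Ba (5.73).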

How the results depend on the processing

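The count of genes that passed at 24 h was 0 under every alternative run except 1. Without Air rat 133 at 1 week it was 1 higher gene, Dbp, so that the range over single arrays left out was 0 to 1. For the difference between 24 h and 3 h, array weights gave 90 genes, the mean of the probe sets 1 (Atp1b1) and the fit without the 7 arrays at 1 week 1 (Upk3a). Leaving out 1 array gave 0 to 11 for that difference: 11 without Air rat 150 at 3 h, a fit with a lone Air array there that is assumed to vary like the others, and 1 each without Air rat 185 at 1 week and PH3 rat 152 at 3 h. The default estimate of the array weights did not converge and a gene-by-gene estimate was used, in which Air rat 84 had the lowest weight at 24 h (0.233). With the rat number as a term over all 21 lung arrays, added after seeing the data, 0 genes passed at 24 h or for the differences with 3 h and 1 week (limma, 704 and 165 at an unadjusted p under 0.05 for the differences). No paired analysis was possible because no Air and PH3 group shares a rat number. Centring each array on its median turned the split at an unadjusted p under 0.05 from 102 higher and 88 lower to 72 and 132.

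Of the 2833 values of single genes under alternatives, 31 changed sign and 8 passed that did not before, all 8 without Air rat 133. These were Dbp at 24 h and clock genes at 1 week. At 1 week only 9 clock genes were followed, so that no other gene could appear there. With array weights the changes of Cdkn1a (0.15), Gdf15 (0.0061), Timp1 (0.0054), Sftpa1 (-0.0276), Cox4i2 (0.0106) and Rora (-0.33) turned. With the mean of the probe sets Rora (-0.0069) and RT1-Ba (-0.67) turned, and with a second quantile normalisation Ager (-0.0035). Without PH3 rats 70 and 155, Mt2A (-0.10), Sftpc (0.0192) and Acta1 (-0.12) turned. With single arrays left out, Cdkn1a ranged from -0.24 to 0.18, Gdf15 from -0.44 to 0.0155, Il1b from -0.0606 to 0.39, Timp1 from -0.25 to 0.0458, Sftpa1 from -0.0616 to 0.18 and Cox4i2 from -0.40 to 0.0059. Rora ranged from -0.36 to 0.35, Mt2A from -0.0766 to 0.47, Ucp1 from -2.82 to 0.24, Fabp4 from -1.57 to 0.17, Sftpc from -0.0457 to 0.0146 and Ager from -0.0028 to 0.0626. The cause of these changes was not tested. With 4 arrays a group, the median SE of a change was 0.18.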
